A study of Mus musculus with 8 samples.

Results

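The genes described here are 10 mouse genes by which macrophages sense colony-stimulating factors. They are the receptor chains for M-CSF (*Csf1r*), GM-CSF (*Csf2ra*, *Csf2rb* and *Csf2rb2*) and G-CSF (*Csf3r*), the M-CSF gene itself (*Csf1*), the adaptors *Grb2* and *Gab2*, and the ubiquitin ligases *Cbl* and *Cblb*, which attenuate the signal. They were chosen by name and function, out of 21720 protein-coding genes to which m6A peaks could be assigned. N6-methyladenosine (m6A) was mapped by MeRIP-Seq in bone marrow-derived macrophages (BMDMs), which had been grown from marrow of C57BL/6 mice aged 8 weeks with M-CSF at 40 ng/mL for 7 days. There were 2 WT and 2 KO mice, with an m6A IP library and an input library for each, 8 in all, and 1 peak list per mouse (named WT-1 and WT-2 or KO-1 and KO-2). The labels call the genotypes wild type and *Mettl3*-/-. By the methods of the study both carried floxed *Mettl3* alleles, *Mettl3*fl/flLyz2+/+ in WT and *Mettl3*fl/flLyz2cre/+ in KO mice, so that *Mettl3*, the catalytic subunit of the m6A methyltransferase, was deleted only in cells in which the *Lyz2* locus drives Cre. A MeRIP-Seq peak is a stretch of RNA recovered more often with the m6A antibody than in the input, so a listed peak needs both the mark and enough RNA of the gene, and fewer cells with the RNA cannot be told apart from less RNA per cell.

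M-CSF binds CSF1R, a receptor tyrosine kinase that keeps macrophages alive and growing. GM-CSF binds the alpha chain CSF2RA, which signals through the common beta chain CSF2RB, and mice carry a second beta chain gene, *Csf2rb2*, whose product serves mainly IL-3. G-CSF and its receptor CSF3R are best known in neutrophils. Activated CSF1R recruits GRB2, which bridges receptors to the Ras exchange factor SOS1 and to the scaffold GAB2, while CBL and CBL-B mark activated receptors and adaptors with ubiquitin. The mark m6A is placed at short motifs that centre on an adenosine before a cytidine, of which GGAC is the form named in the study, and it is found mainly in long exons and around stop codons.

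The lists held 6159 and 6263 peaks in WT and 6378 and 6684 in KO mice, and between 94.4% and 95.9% of them fell on exons of protein-coding genes, strand considered. The median width was 478 and 498 bp in WT and 501 and 543 bp in KO mice, and no listed peak was narrower than 300 bp. Between 42.0% and 50.6% of the peaks began or ended exactly on the edge of an annotated exon. The score of the peak caller reached 3100 or more in 10.3% and 13.5% of the WT peaks and in 16.2% and 19.5% of the KO peaks. Since 3100.0 was the most common score of all, equal scores at this value do not show that peaks were alike. No read counts come with the lists, so sequencing depth is unknown and a score was read only as a rank within its own list, given as the share of peaks of that list with the same or a lower score. Ties count in full, so a peak at 3100.0 ranks at 99.1% or more. Such a rank places it only among the 10.3% to 19.5% of its list given above. *Mettl3* had 0 peaks in each list, so the lists give no check of the genotypes. By other assays the paper reported *Mettl3* mRNA as reduced but not absent in KO BMDMs, and a lower m6A level of mRNA. Of 10 macrophage markers, 5 had a peak in any list, while a peak was listed on 1 of 7 neutrophil markers (*Csf3r*), 1 of 4 of B cells, 1 of 4 of T cells, 0 of 4 of dendritic cells, 0 of 4 of erythroid cells and 2 of 3 of stromal cells. The part of other cells in the values below was not tested. *Adgre1*, *Cd68*, *Itgam* and *Lyz2* had no listed peak, which says nothing of their RNA level.

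Peaks were listed on 6 of the 10 genes and on 32.0% of all protein-coding genes, whatever their RNA level. Each WT mouse had 7 peaks on the 10 genes and each KO mouse 8, in every mouse on 5 genes. *Csf1*, *Gab2* and *Cblb* were in all 4 lists, as were 9.77% of all protein-coding genes and 30.5% of those with any listed peak. None of the 6 genes was WT-only (listed for both WT mice but for no KO mouse), a pattern seen in 3.95% of the genes with any listed peak, and none was KO-only, the reverse pattern, which was seen in 4.90%. With 2 mice against 2 the exact permutation test used here gives a p of 0.333 at the least, so it cannot call a difference between the genotypes.

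**Figure D1:**
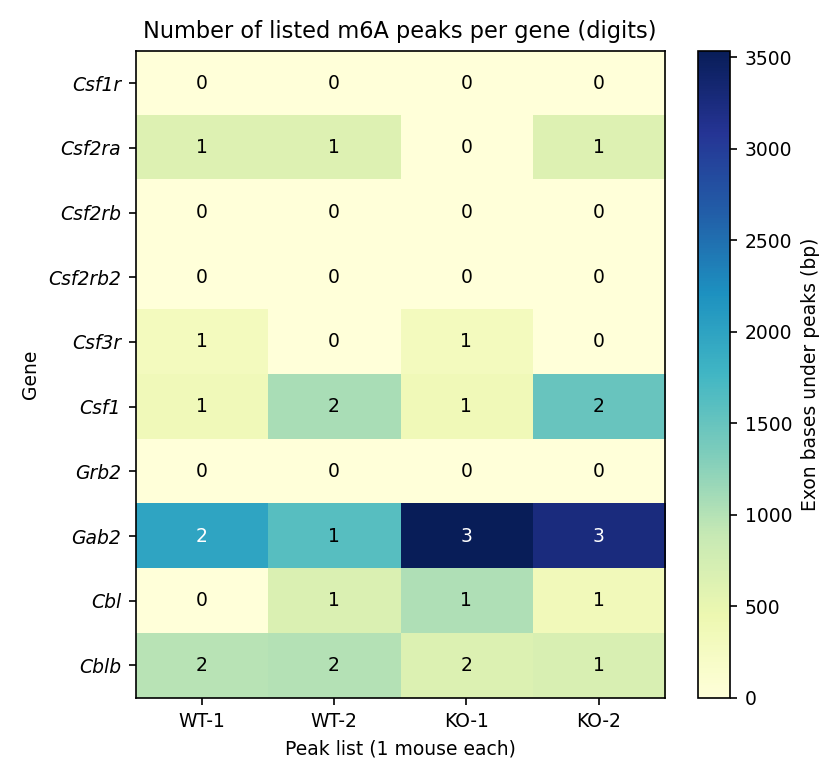
Number of listed m6A peaks (digits) and exon bases under them (colour, in bp) for the 10 genes (rows) in the 4 lists (columns, 1 mouse each). The rows of *Csf1r*, *Csf2rb*, *Csf2rb2* and *Grb2* are at 0 in each list, and *Gab2* has 3 peaks in each KO list against 2 and 1 in the WT lists.

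The 30 peaks fell into 14 regions when those sharing at least 1 bp were merged. All 4 mice shared 2 of the regions, 3 mice shared 3, a pair of mice shared 4, and 5 were seen in 1 mouse. Over all genes, 18.6% of the regions were seen in all mice and 48.5% in 1 mouse. The sequences below are stretches of 21 bases on the mRNA strand around a motif in each region with a peak in at least 2 lists, shown because the motif is the letters at which the mark can lie within these broad peaks. The motif shown is the one nearest the mean midpoint of the region's peaks, and its position is given in GRCm38 from the RefSeq genome. Capitals mark GGAC, or a match to the looser motif DRACH (D is A, G or T, R is A or G and H is A, C or T) in the region that held no GGAC, and U is written as T.
*Csf2ra*, exon 12, 3 lists, chr19:61224613-61224633, minus strand: gatggcagGGACagcgtgcat
*Csf3r*, exon 4, 2 lists, chr4:126029909-126029929, plus strand: caacctggGGACagacagcat
*Csf1*, exon 6, 3 lists, chr3:107748646-107748666, minus strand: tcaacagaGGACcaaaagcca
*Csf1*, exon 9, 2 lists, chr3:107741868-107741888, minus strand: agctctggGGACtgagctcca
*Gab2*, exon 2, 2 lists, chr7:97223607-97223627, plus strand: tgcaggccTGACCttcaacaa
*Gab2*, exon 4, 3 lists, chr7:97299120-97299140, plus strand: ctccttgtGGACaatatggat
*Gab2*, exon 10, 4 lists, chr7:97305962-97305982, plus strand: gcaagtggGGACatgtgtcca
*Cbl*, exon 16, 2 lists, chr9:44151112-44151132, minus strand: ctaattaaGGACttaaggctt
*Cblb*, exon 19, 4 lists, chr16:52204745-52204765, plus strand: agacagaaGGACtgagaggga
Each of these motifs lay inside every peak of its region. GGAC was present in 28 of the 30 peaks, with 7 of 7 for either WT mouse and 7 of 8 for either KO mouse, beside 86.5% to 88.3% of all assigned peaks of a list. DRACH, which includes GGAC before any base but G, was present in all 30 and in 99.6% to 99.8% of all assigned peaks. Motifs were searched on the mRNA strand of the exons, and a match does not show that the site was methylated.

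*Csf1r*, the receptor for the growth factor of the culture, was without a listed peak in every mouse. The gene lies on chromosome 18 (61100598 to 61132149, plus strand), and its coding transcript of 4701 bases in 21 exons held 33 GGAC, 23 of them in the CDS. As many GGAC or more were found in 1000 genes, of which 49.8% carried a listed peak. Its 21 exons include 1 of at least 300 bp, exon 21, with 1846 bp.

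The beta chain genes *Csf2rb* and *Csf2rb2*, neighbours on chromosome 15, had no peak in any list either. *Csf2rb* held 31 GGAC in 4900 bases and *Csf2rb2* 33 in 4740 bases. Their coding sequences were 95.2% identical over the aligned bases, with an identical run of 242 bases, and 18.4% of all stretches of 50 bases of the *Csf2rb* transcript occurred unchanged in *Csf2rb2*. Reads that lie wholly within such stretches would fit both genes, and their part in the absent peaks on this pair was not tested. *Cbl* and *Cblb*, the other related pair, shared 0 stretches of 50 bases.

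*Csf2ra*, the alpha chain that gives the GM-CSF receptor its specificity, lies on chromosome 19 (61223957 to 61228429, minus strand). It had the same peak, from 61224402 to 61225033, in both WT mice and in KO-2, and none in KO-1. The peak was the whole of exon 12, the last exon, with 27 bases of CDS and 605 bases after it. Its score ranked at 86.8% of the WT-1 list, 31.4% of the WT-2 list and 55.4% of the KO-2 list. The KO lists thus differed from each other, and KO-2 ranked between the WT lists. The peak held 4 of the 15 GGAC of the transcript, and the motif shown for exon 12 stood 384 bases after the CDS.

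*Csf3r*, on chromosome 4 (126024550 to 126044440, plus strand), had the same peak in 1 list of each genotype, WT-1 and KO-1. It ran from 126029763 to 126030062, which is exon 4 from edge to edge, at the lowest width of any listed peak. Its score was at or above 7.39% of the peaks in WT-1 and 49.7% in KO-1. The exon held 5 of the 22 GGAC of the *Csf3r* transcript, or 16.7 per kb against 5.34 per kb in the rest of the transcript. The other genes with peaks were divided. Regions with a peak were denser in GGAC in *Gab2* (4.52 against 3.42 per kb) and *Cbl* (5.69 against 3.01). They were less dense in *Csf2ra* (6.33 against 9.04), *Csf1* (3.57 against 7.76) and *Cblb* (3.68 against 6.38). *Csf3r* was also 1 of the 7 neutrophil markers, and the other 6, among them *Elane*, *Mpo* and *S100a8*, had no peak.

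*Csf1*, on chromosome 3 (107741048 to 107760469, minus strand), encodes M-CSF, which macrophages can also make themselves. It had peaks in all 4 lists, but no region was shared by all of them. In exon 6, the long coding exon whose alternative use separates the secreted from the membrane-bound forms of M-CSF, a region from 107748203 to 107749168 had a peak in both KO mice and in WT-2. The 3 peaks shared 277 bases with 1 GGAC, and they ranked at 14.2% of the WT-2 list and at 13.1% and 34.2% of the KO lists. In the 3′-UTR (exon 9), WT-2 and KO-2 had overlapping peaks, and WT-1 had a peak of its own from 107741321 to 107741674. The score of the KO-2 peak in exon 9 was 3100.0, at or above 99.3% of its list with ties counted. The WT-2 peak stood at 20.4% and the WT-1 peak at 18.8%. Exon bases under *Csf1* peaks numbered 354 and 1074 for the WT mice and 367 and 1480 for the KO mice, so the spread within each genotype was larger than the difference of 209.5 between the means (two-sided exact permutation test, p = 0.667). Leaving out WT replicate 1 turned it to -150.5, leaving out KO replicate 2 turned it to -347, and leaving out KO replicate 1 raised it to 766.

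*Grb2*, the adaptor that couples CSF1R to SOS1, had no peak in any list. It lies on chromosome 11 (115644045 to 115708597, minus strand), and its transcript of 2709 bases held 12 GGAC, 6 of them in the 1727 bases after the CDS. Of the 9539 genes with as many GGAC or more, 46.1% had a peak in any list.

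*Gab2*, the scaffold that GRB2 recruits, carried the most peaks of the 10 genes. It lies on chromosome 7 (97081586 to 97308946, plus strand), and its transcript has 10 exons. In its last exon, of 4071 bp, each list had 1 broad peak in the 3′-UTR, from 97305294 (WT-1) or 97305201 (WT-2) to 97306811 in the WT mice and from 97304876 to 97307550 (KO-1) or 97307275 (KO-2) in the KO mice. Both KO peaks began on the first base of the exon and so took in the last 141 bases of CDS, while the WT peaks began 278 and 185 bases after the CDS. The score was 3100.0 in each list, at or above 99.1% or more of the peaks with ties counted. Scores of 3100 or more were held by 10.3% and 13.5% of the WT peaks and 16.2% and 19.5% of the KO peaks. All 4 peaks shared 1518 bases, the whole of the WT-1 peak, with 9 GGAC. The motif shown for exon 10 stood 956 bases after the CDS.

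Exon 4 of *Gab2*, a coding exon of 575 bp, had a peak in both KO mice and in WT-1, and none in WT-2. The peaks shared 459 bases with 3 GGAC, and their midpoints lay within 50.5 bases of each other. Scores were at or above 35.0% of the peaks of the WT-1 list and 54.7% and 60.2% of those of the KO lists. Exon 2 of *Gab2*, a coding exon of 301 bp, was listed from edge to edge, from 97223473 to 97223773, in KO-1 and KO-2 and in neither WT list. It was the only 1 of the 14 regions that split by genotype, while over all genes 6.03% of the regions were KO-only and 3.39% WT-only. It was also the only region without GGAC, though it held 6 matches to DRACH. The scores were at or above 38.0% of the peaks in KO-1 and 14.4% in KO-2.

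Exon bases under *Gab2* peaks numbered 1985 and 1611 for the WT mice and 3536 and 3253 for the KO mice. WT mice averaged 1798 ± 264.5 (SD, n = 2) and KO mice 3394.5 ± 200.1 (SD, n = 2), and the lists of the genotypes did not overlap. The difference of 1596.5 bases had a p of 0.333, the smallest that 2 mice against 2 allow (two-sided exact permutation test). More exon bases in both KO lists than in either WT list were found in 18.8% of the genes with a peak in any list. The KO lists were longer, and their peaks wider, over all genes. In exon 10 the *Gab2* peaks were 1518 and 1611 bp wide in WT and 2675 and 2400 bp wide in KO mice. The part of list length or peak width in the difference was not tested. Cutting the lists to the same length by score left the difference at 1596.5. That cut removed no *Gab2* peak, since the lowest ranked at 14.4% of its list, so it could not change the value. In the upper 50% of each list by score the difference was 1529. This cut could not remove the exon 10 peaks, all with a score of 3100.0, so their widths still entered the value. It also kept the exon 4 peaks of the KO mice, and dropped that of WT-1 and the exon 2 peaks.

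**Figure D2:**
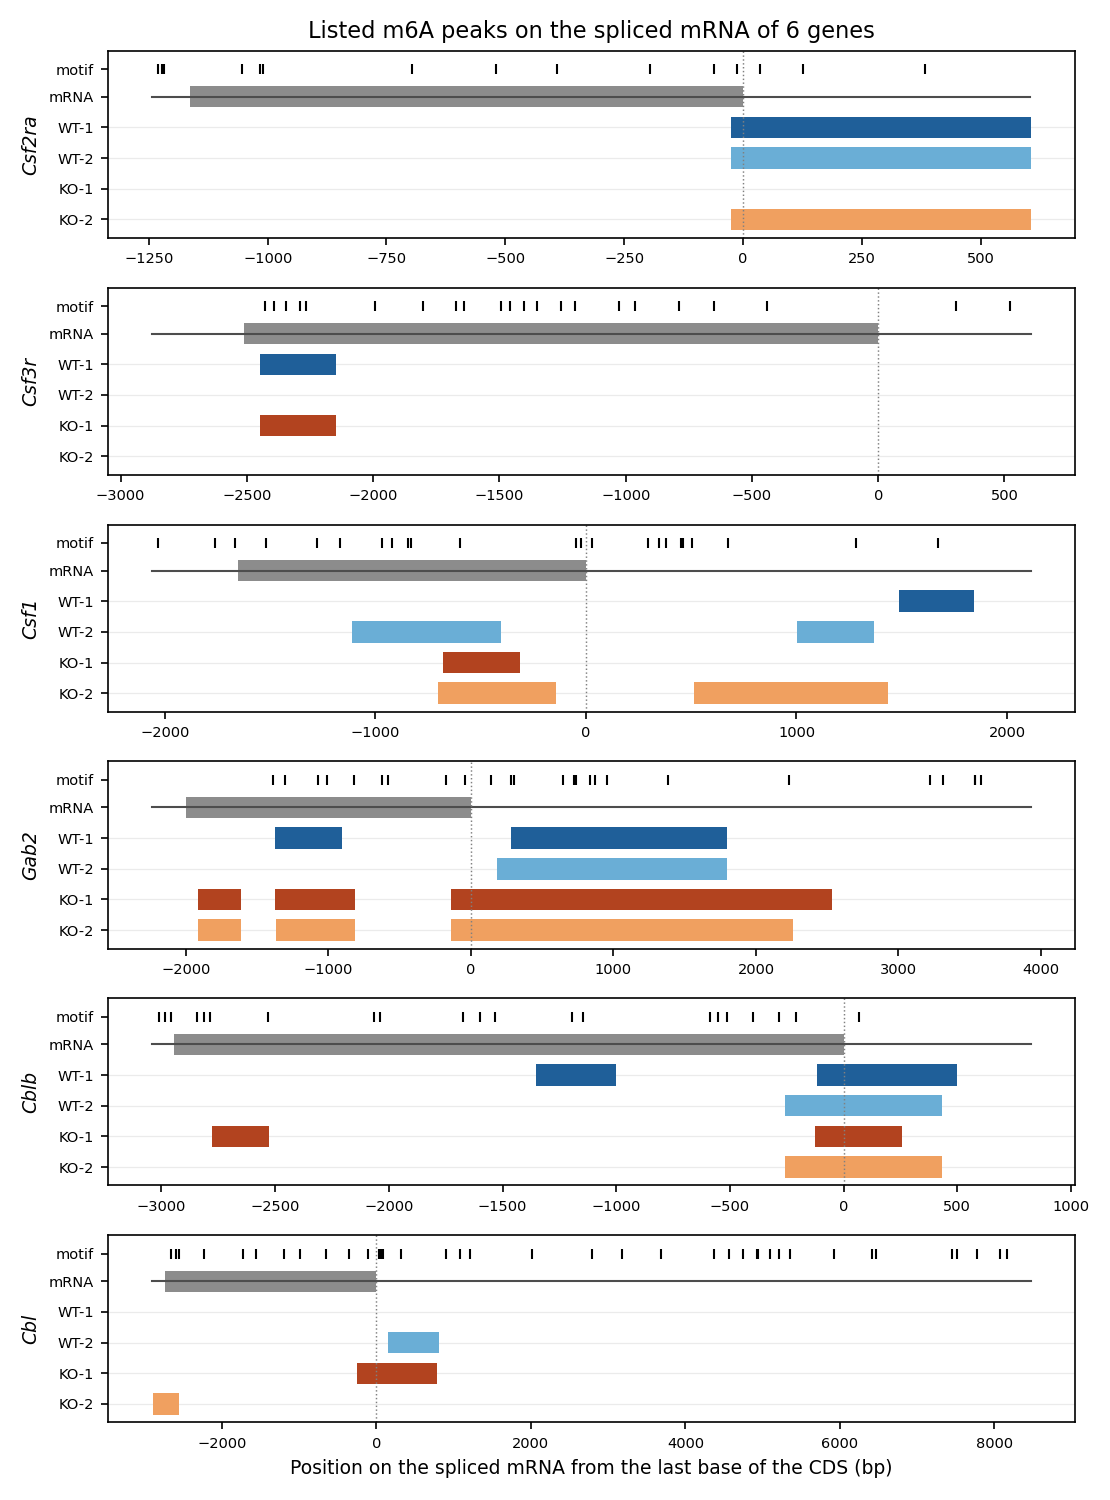
Listed peaks of each mouse (coloured bars) on the spliced mRNA of the 6 genes with a peak, with position in bp from the last base of the CDS (0), the CDS as a grey bar and the motif GGAC as black ticks. *Gab2* and *Cblb* have a peak in all 4 lists at the same place, and the *Gab2* peak at the left is in the KO lists only. Not drawn is 1 peak of *Cblb* in WT-2 outside the transcript.

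*Cblb*, on chromosome 16 (52031225 to 52208048, plus strand), had a peak over its stop codon in every list, in exon 19. The peaks ran from 52204571 to 52205188 in WT-1, from 52204562 to 52204946 in KO-1, and from 52204433 to 52205121 in the remaining pair, WT-2 and KO-2. All 4 shared 376 of the 756 bases of the region, and these held the only GGAC after the CDS of this transcript, 66 bases beyond the last coding base. Scores were 3100.0 in WT-2 and KO-2, and at or above 60.7% of the peaks in WT-1 and 70.0% in KO-1. WT-2 and KO-2 thus had peaks with the same edges, across the genotypes.

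Each further *Cblb* peak was in 1 list. WT-1 had a peak in exon 12 at 2.61%, and KO-1 had one that covered exon 3 at 60.7%. WT-2 had one from 52207639 to 52207946 at 66.9%, outside the transcript with the longest CDS but in an exon of another coding transcript. Exon bases under *Cblb* peaks numbered 968 and 997 for the WT mice and 636 and 689 for the KO mice. WT mice averaged 982.5 ± 20.5 (SD, n = 2) and KO mice 662.5 ± 37.5 (SD, n = 2). The difference of -320 bases had a p of 0.333 (two-sided exact permutation test), and fewer exon bases in both KO lists than in either WT list were found in 8.62% of the genes with a peak in any list. In the upper 50% of each list by score the difference was -145 and the genotypes overlapped.

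*Cbl*, the ligase that acts on CSF1R itself, lies on chromosome 9 (44142976 to 44234049, minus strand). Its transcript was the longest of the 10, with 11372 bases, 8762 of them in the last exon, and it held the most GGAC, 38. Of these 38, 8 lay in a region with a peak. WT-2 had a peak from 44150637 to 44151291 in the 3′-UTR and KO-1 one from 44150668 to 44151699, which reached over the stop codon, and the 2 shared 624 bases with 1 GGAC. KO-2 had a single peak from 44233700 to 44234041 in exon 1, which covered the start of the CDS, and WT-1 had none. Scores were at or above 37.7% of the peaks of the WT-2 list and 19.1% and 48.1% of those of the KO lists, none above the middle of its list. Exon bases numbered 0 and 655 for the WT mice and 1032 and 342 for the KO mice, and the genotypes overlapped (difference 359.5, two-sided exact permutation test, p = 0.667). With 1 list left out the difference ranged from 14.5 (without KO replicate 1) to 704.5 (without KO replicate 2), it was 32 without WT replicate 1 and 687 without WT replicate 2, and in the upper 50% of each list by score it was 0.

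**Figure D3:**
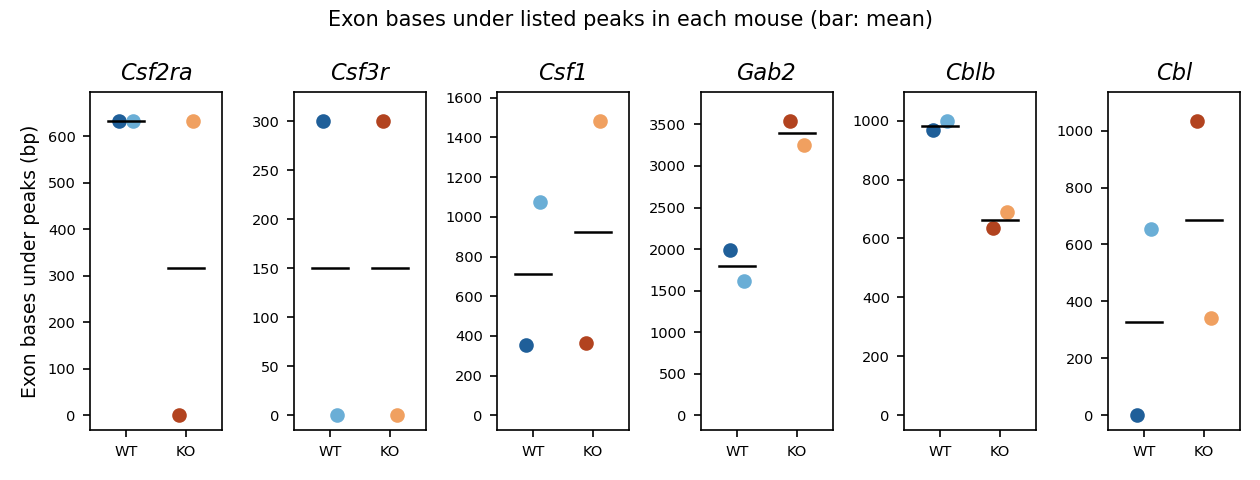
Exon bases under listed peaks (y axis, in bp, with its own scale for each gene) in WT and KO mice for the 6 genes with a peak; a point is 1 mouse, the darker of each genotype is mouse 1, and the bar is the mean. The genotypes are apart in *Gab2*, with KO higher, and in *Cblb*, with WT higher.

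Across the 6 genes the midpoint of 16 peaks lay in the 3′-UTR, that of 13 in the CDS and that of none in the 5′-UTR, and 1 peak could not be placed on the transcript used. The CDS held 3 of 7 and 1 of 6 placed peaks for the WT mice and 5 of 8 and 4 of 8 for the KO mice, whereas it held 49.2% and 47.2% of all placed peaks of the WT lists and 54.4% and 52.0% of those of the KO lists. With 6 to 8 peaks a list, such shares carry a wide counting error. Scores of 3100 or more were reached by 7 of the 30 peaks, and each of these 7 lay in the last exon of *Gab2*, *Cblb* or *Csf1*. Of the 30 peaks, 15 ranked above the middle of their list.

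**Figure D4:**
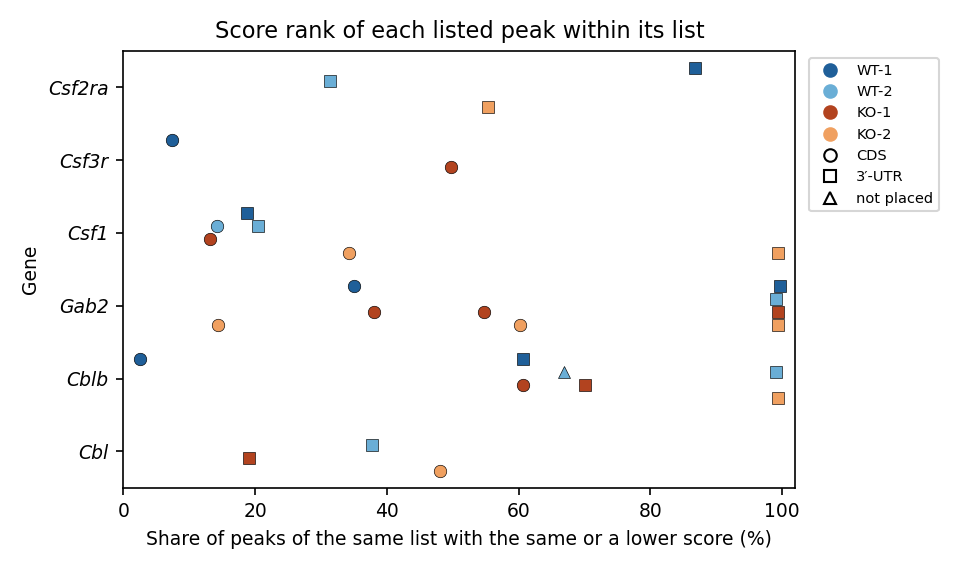
Rank of each listed peak within its list, as the share of peaks of that list with the same or a lower score (x axis, in %), for the 6 genes with a peak; the colour gives the mouse and the symbol the part of the mRNA. The 4 *Gab2* peaks in the 3′-UTR stand at the right edge, whereas those of *Cbl* lie at 48.1% or below. All peaks with a score of 3100.0 are tied at the right edge.

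To place the 10 genes in their pathway, 42 further genes of ligands, receptor chains, kinases, phosphatases, adaptors and attenuators of these receptors were examined in the same lists. Peaks were listed on 21 of them (50%), where the share over all protein-coding genes was 32.0%, and 6 of the 21 were seen in every mouse, where the share over all genes with a peak was 30.5%. The 32.0% covers genes whatever their RNA level, and the 42 genes were chosen with earlier results of these data known. The higher share therefore does not show that m6A is enriched in the pathway. None of the 5 ligands and 2 receptor chains had a peak, while 10 of 13 kinases, phosphatases and their partners, 4 of 9 adaptors and exchange factors, 6 of 10 attenuators and 1 of 3 signal transducers had one.

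The 6 genes in all lists were *Cd2ap* and *Ubash3b*, partners of the Cbl proteins, *Pik3r1*, a regulatory subunit of PI3-kinase, *Ptpn11*, the phosphatase SHP2 that binds GAB2, *Sos1* and the kinase *Syk*. The *Cd2ap* peak of WT-2, from 42793169 to 42793484 on chromosome 17, did not overlap those of the other mice. *Pik3r1* had 2 peaks in each list, and all 8 had a score of 3100.0. *Sos1* had 3 peaks in each list, and that in exon 20, from 80406646 to 80406958 on chromosome 17, had the same edges and a score of 3100.0 in all 4. *Ptpn11* had 1 peak in each list in its last exon, ranked at 3.67% and 99.1% of the WT lists and at 52.3% and 58.2% of the KO lists. The rank of 99.1% counts ties at a score of 3100.0. For *Ptpn11* the presence of the peak was shared by the mice and its rank was not.

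Of the 21 genes, 4 were WT-only, where the share over all genes with a peak was 3.95%. *Lyn*, a Src-family kinase, had a peak of 1301 bp in WT-1 and of 1613 bp in WT-2 in its last exon, at 56.1% and 54.3% of their lists. *Pik3cd*, the PI3-kinase subunit p110δ, had one of 650 and of 1523 bp in its last exon, at 76.4% and 49.9%. *Cish*, an inhibitor induced by STAT5, had 1 peak in WT-1 and 2 in WT-2, at 44.4%, 25.1% and 5.17%. *Inpp5d*, the inositol phosphatase SHIP1 that restrains PI3-kinase signals, met the criterion with peaks that did not overlap, in exon 1 in WT-1 and in exon 27 in WT-2. KO-only was 1 gene, *Dok1*, an adaptor that dampens tyrosine kinase signals, with a peak of 939 bp in KO-1 and of 1476 bp in KO-2, at 48.7% and 55.0%. Over all genes with a peak the share was 4.90%. Neither pattern was found for any of the 10 genes.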

How the data were processed

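Per the labels, reads were trimmed with cutadapt 1.9.3 and aligned with HISAT2 2.0.4, and the build was mm10 (GRCm38). The authors deposited 1 list of mRNA peaks per mouse, made from its IP and input library, which gives each peak a score. Peak names have the form that MACS gives, and the peak caller's version and threshold are not given in the sources used here. Starts count from 0, since between 25.0% and 31.2% of them then fall on exon starts (at most 0.314% if counted from 1), and were raised by 1. Peaks were assigned to the protein-coding gene with the largest exon overlap on the same strand (GENCODE M21 basic set, coding transcripts without readthrough, at least 1 bp). Parts, and the motifs of whole transcripts, were read on the coding transcript with the longest CDS. Whether a peak held a motif was read on the exons of all coding transcripts of its gene. Exon bases under peaks were tested between genotypes with an exact two-sided permutation test (6 labellings). Whether mice were processed together or apart is not stated. The p-values only rank the observed difference among the 6 labellings of these lists and do not set genotype apart from processing. All 10 genes are named, and of the 42 pathway genes those in all lists or in both lists of 1 genotype only. The sequences of regions in 2 lists were added after their peaks were seen, to those in 3 or more. The genes and lists were chosen with earlier results of these data known. Alternatives were the upper 50% of each list by score, equal numbers of top peaks, other rules of assignment, presence, merging, placement and motif, a replicate block, and each list left out in turn. With simulated peaks placed inside the longest exon of a gene and clear of other genes, the scripts returned their true presence in 100% of 5000 genes. Peaks that cross exon edges or overlap several genes were not simulated, so their assignment was not tested. Python 3.11.15, Biopython 1.88 and matplotlib 3.10.9 were used.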

Additional observations from a re-analysis of the deposited data

How the results depend on the processing

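Of the values computed under alternatives, 64 of the main results stayed within their spread or within 1.5 times the count and 13 moved, and for single genes 81 kept their direction or stayed at 0, 7 moved to or from 0 and 2 changed sign, both in *Csf1* (-150.5 without WT replicate 1 and -347 without KO replicate 2). For the difference in peak number and the share with GGAC the spread within each genotype was 0, so any change in them counted as moved. The cause of the changes was not tested unless fewer lists or peaks account for them by construction. In the upper 50% of each list by score, KO mice had 1.5 more peaks on the 10 genes than WT mice (1 in the full lists), the CDS held 17.5% of the placed peaks (43.0% as the mean of the full lists) and GGAC was in 100% of the peaks (93.8%). With each list left out in turn, the *Csf1* difference ranged from -347 to 766, the CDS share from 36.5% to 51.8% and the share with GGAC from 91.7% to 95.8%, and both the genes with a peak in WT only and those in KO only ranged from 0 to 1 (*Csf2ra* without KO replicate 2, *Cbl* without WT replicate 2). GGAC was in 71.0% of the central 200 bp of the peaks, and DRACH in 100% of the peaks. Neither labels nor methods say that a replicate number pairs mice. In both genotypes more genes had a peak in replicate 2 than in replicate 1. The numbers were 4336 against 4154 in WT and 4427 against 4167 in KO mice. Whether a replicate number marks shared processing was not tested. The differences between the mice of a genotype had a correlation of -0.0507 across 6958 genes, and genes are not independent of each other. A gene listed for 1 mouse only enters with a difference of 0 in the other genotype, so this correlation cannot decide whether mice were paired. With the replicate block, 1 gene was in WT only (*Csf2ra*) and 1 in KO only (*Cbl*), since presence in 1 pair then sufficed, and the differences in peaks and exon bases stayed as they were. Without read counts, an absent peak cannot be told from too little RNA or too few reads.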
